A study of Mus musculus with 25 samples.

Results

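The genes described here encode the secreted products of the lactating mammary gland, the proteins of milk fat secretion and the factors and receptors that define luminal mammary cells. A list of 32 mouse genes was examined, and a gene counted as measured where a probe set carried its symbol and no other. On that basis 30 of the 32 genes were measured on exon arrays, among 18997 genes in all, and 30 on gene arrays, among 19938. Both array types measured 29 of them. Glycam1, a mucin-like milk protein, had no probe set of its own on the exon arrays, Lalba had none on the gene arrays, and Prlr, the prolactin receptor, was not analysed here.

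In the lactating gland, prolactin acts through its receptor and the transcription factors Stat5a and Stat5b to switch on caseins and whey proteins in luminal alveolar cells. The fat of milk is made in the same cells and leaves them as droplets wrapped in plasma membrane, which needs butyrophilin and xanthine oxidoreductase. A separate luminal population senses oestrogen and progesterone through Esr1 and Pgr, and Gata3 is required to keep luminal cells differentiated.

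All samples were Ep5 (EpRas) cells, a mouse mammary epithelial line transformed by Ras, labelled with the C57BL/6 background and grown in DMEM with fetal calf serum. The labels name no lactogenic hormone in any group. On exon arrays, 5 samples held sub-confluent cells alone, 5 held cells after 24 h with wild-type C57BL/6 platelets at about 1000 platelets per cell, and 3 held cells mixed with platelets just before RNA isolation (the lysis mix, a control for RNA that platelets bring). On gene arrays, 3 samples each held cells alone, cells after 24 h with platelets, cells after 24 h with the pellet of thrombin-treated, centrifuged platelets, and cells after 24 h with the supernatant of such platelets, the releasate. One line was used, and the labels do not say whether replicates were separate cultures. The p-values therefore refer to the spread of these samples alone, and that spread may be technical.

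The deposited values are log2 expression levels, normalised separately for the 2 array types, and no level is compared here between genes or between array types. The array medians lay between 3.62 and 3.90 on exon arrays and between 5.56 and 5.63 on gene arrays. A gene was called above background in an array where it exceeded the 95th percentile of the odorant, vomeronasal and bitter taste receptor probe sets of that array, a level of 3.93 to 4.52 on exon arrays and 5.45 to 5.53 on gene arrays. Epithelial markers gave a mean level of 10.03 to 10.12 in exon arrays of cells alone, with 10 of 11 above background. A list of 24 platelet genes averaged 4.0 to 4.13 alone, 4.84 to 6.48 after culture with platelets and 5.58 to 5.95 in the lysis mix. On gene arrays 22 platelet genes averaged 5.71 to 5.77 alone, 6.07 to 6.08 with platelets, 5.95 to 6.03 with the pellet and 5.67 to 5.69 with releasate.

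Only part of the milk and luminal programme was on in tumour cells alone. On exon arrays 12 of the 30 measured genes were above background in every array of cells alone and 18 in none. On gene arrays 13 were above it in every array, 16 in none and Csn2 in 2 of 3. Of the 29 genes measured on both array types, 11 were on in every array of both types, and 15 were off in every array of both. The 11 were Csn3, Lcn2, Btn1a1, Xdh, Plin2, Mfge8, Fasn, Stat5a, Stat5b, Gata3 and Esr1.

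**Figure D1:**
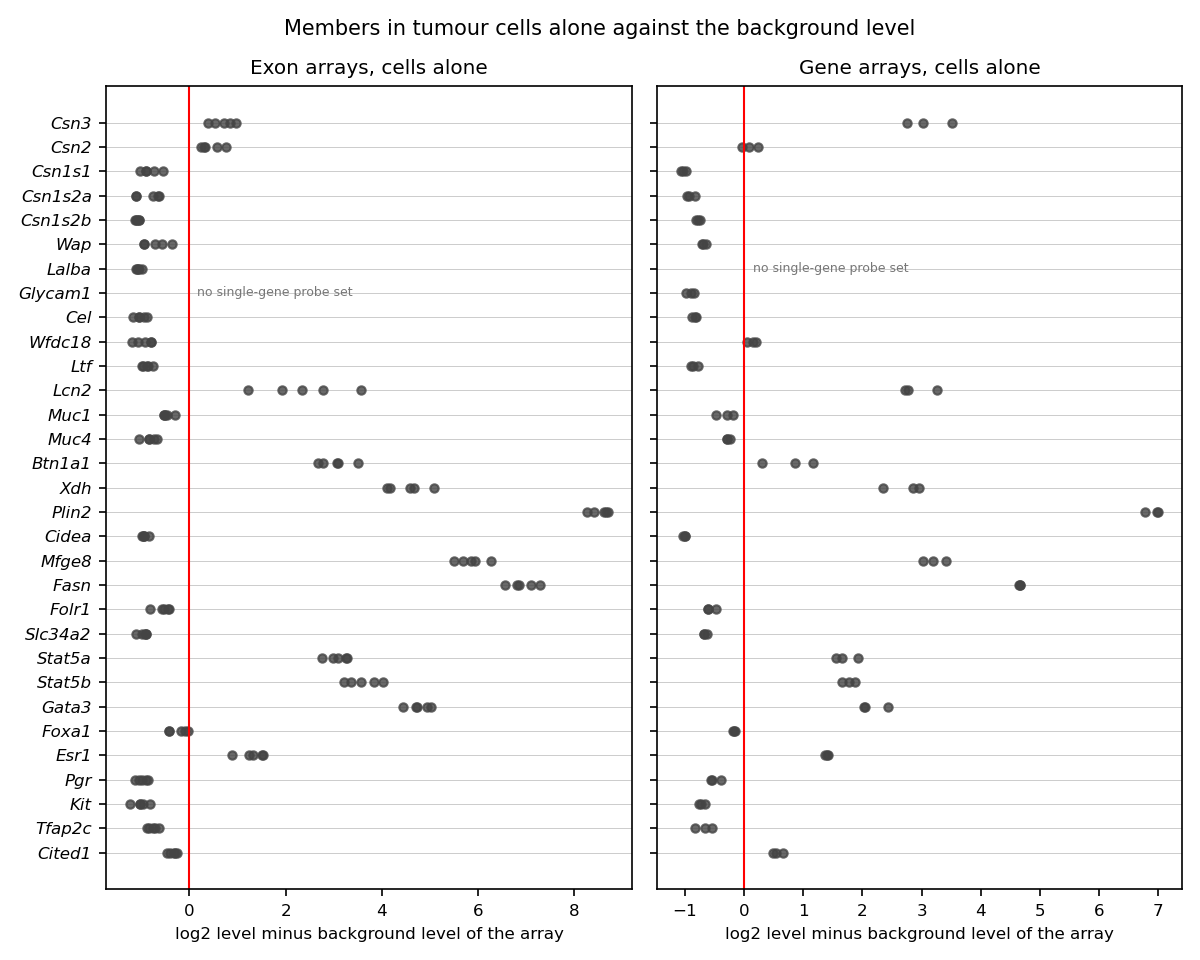
Log2 level of each gene minus the background level of the same array, for the 5 exon arrays and the 3 gene arrays of tumour cells alone; each point is an array and the red line at 0 is the background level. On exon arrays 12 of 30 genes lie to the right of the line in every array, and on gene arrays 13 of 30.

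Among milk proteins, the alpha-caseins and the whey proteins were at background. Csn1s1, which encodes an alpha-casein, had a mean log2 level of 3.33 ± 0.21 (SD, n = 5) on exon arrays and 4.45 ± 0.03 (SD, n = 3) on gene arrays, both under background in every array. Wap, the whey acidic protein gene, stood at 3.45 ± 0.26 (SD, n = 5) and 4.80 ± 0.02 (SD, n = 3). Csn1s2a, Csn1s2b and, on exon arrays, Lalba, the alpha-lactalbumin gene needed for lactose synthesis, were under background in all arrays of cells alone, with Lalba at 3.09 ± 0.06 (SD, n = 5).

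Csn2, the beta-casein gene, lay close to the line, with 4.81, 4.33, 4.36, 4.49 and 5.0 in exon arrays of cells alone, all above the background of their arrays, and 5.45, 5.71 and 5.57 on gene arrays, where the first was not. With the 99th percentile of the receptor probe sets as the line, Csn2 was above it in none of the 5 exon arrays. Csn3, the kappa-casein gene whose product stabilises casein micelles, was on in every array of both types, but on exon arrays it too was above the 99th percentile in none of the 5.

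The other 11 genes under background in both array types were Cel, a milk lipase, Ltf, the iron-binding lactoferrin, the mucins Muc1 and Muc4, Cidea, a lipid droplet protein, Folr1, a folate receptor, Slc34a2, a phosphate transporter, and the luminal genes Foxa1, Pgr, Kit and Tfap2c. Foxa1, a pioneer factor for oestrogen receptor binding, was nearest to the line, at 3.93 ± 0.24 (SD, n = 5) and 5.32 ± 0.01 (SD, n = 3). Pgr, the progesterone receptor gene, was at 3.17 ± 0.18 (SD, n = 5) and 4.98 ± 0.09 (SD, n = 3). Wfdc18 and Cited1 were above background on gene arrays only, at 5.62 ± 0.08 and 6.04 ± 0.08 (SD, n = 3). Glycam1 was under background on gene arrays, at 4.57 ± 0.06 (SD, n = 3).

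After culture with platelets, 5 of the 30 genes were lower on exon arrays and none was higher: Btn1a1, Csn3, Gata3, Xdh and Esr1 fell (limma over all genes, Benjamini-Hochberg adjusted p under 0.05). Over all genes 4.55% passed that test, 2.47% in the lower direction. All 5 were among the 12 genes above background in every array of cells alone. A gene under background has little room to be called lower. With only the 10658 genes above background tested, 887 passed, 497 of them lower. These included the same 5 of the 13 listed genes that were kept. None of the 18 genes under background passed, and their differences ran from -0.09 in Csn1s2a to 0.17 in Folr1. The median difference was -0.01 over the 30 genes and 0.00 over all genes. In bulk RNA, fewer cells of a type and less RNA per cell cannot be told apart. The groups did not overlap for 4 of the 30 genes, against 5.51% of all genes.

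Btn1a1, which encodes butyrophilin of the milk fat globule membrane, was among the genes that fell. Its log2 levels were 7.31, 7.16, 7.55, 6.88 and 7.02 in cells alone, 5.57, 5.24, 5.74, 5.36 and 5.38 after culture with platelets, and 7.29, 6.96 and 6.78 in the lysis mix. Every array with cultured platelets was below every array of the other groups. The difference from cells alone was -1.73 ± 0.14 (SE, n = 5 and 5; 95% interval -2.03 to -1.42), a 3.31-fold lower level (limma adjusted p = 2.11e-05). The difference from the lysis mix was -1.55 ± 0.16 (SE; limma adjusted p = 0.000244).

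Xdh, whose product xanthine oxidoreductase works with butyrophilin in coating the fat droplet, also fell. Levels were 9.33, 8.19, 8.71, 8.36 and 8.83 alone, 7.70, 7.09, 7.19, 6.47 and 7.57 with platelets, and 8.57, 8.95 and 8.44 in the lysis mix. The arrays with cultured platelets lay below all others. Xdh differed by -1.48 ± 0.25 (SE; 95% interval -2.02 to -0.94) from cells alone, 2.79-fold lower (limma adjusted p = 0.00361). Against the lysis mix it differed by -1.45 ± 0.29 (SE; limma adjusted p = 0.0127), and this call was lost without lysis mix replicate 5 (adjusted p = 0.0753).

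The remaining genes of milk fat did not pass the test. Plin2, which coats cytoplasmic lipid droplets, stood at 12.50, 12.78, 12.70, 12.81 and 12.67 alone, 13.02, 13.02, 13.02, 12.79 and 12.77 with platelets and 12.73, 12.66 and 12.67 in the lysis mix. Its values with platelets lay above those of the lysis mix and overlapped those of cells alone, with a difference from alone of 0.23 ± 0.08 (SE; limma adjusted p = 0.143). Fasn, the fatty acid synthase gene, had means of 11.09 ± 0.33 alone, 11.08 ± 0.28 with platelets (SD, n = 5) and 11.17 ± 0.33 in the lysis mix (SD, n = 3). Mfge8, which encodes lactadherin of the fat globule surface, had means of 10.01 ± 0.23, 9.81 ± 0.20 and 9.85 ± 0.09, and its difference between platelets and alone had a 95% interval of -0.47 to 0.06.

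Csn3 fell to background. Its log2 levels were 4.61, 5.04, 4.76, 4.73 and 5.09 alone, 3.62, 3.71, 3.55, 4.05 and 3.56 with platelets and 4.65, 4.43 and 4.80 in the lysis mix. No array with cultured platelets was above its background level, whereas all arrays of the other groups were. The difference was -1.15 ± 0.12 (SE; 95% interval -1.42 to -0.88) from cells alone (limma adjusted p = 0.000146) and -0.93 ± 0.14 (SE; limma adjusted p = 0.00279) from the lysis mix. Since the lower values were at background, these differences may understate the change in Csn3. Csn2 gave 4.64, 4.61, 4.53, 4.85 and 4.69 with platelets, which overlapped the values alone (difference 0.07 ± 0.13, SE; limma adjusted p = 0.955).

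Gata3, the zinc finger transcription factor of luminal cells, stood at 9.19, 8.78, 8.77, 8.63 and 9.27 alone, 7.85, 7.63, 7.71, 7.38 and 7.86 with platelets and 8.52, 9.02 and 8.95 in the lysis mix. The platelet culture values did not overlap either other group. The difference was -1.24 ± 0.15 (SE; 95% interval -1.56 to -0.92) from cells alone, 2.36-fold lower (limma adjusted p = 0.000314), and -1.14 ± 0.17 (SE; limma adjusted p = 0.00228) from the lysis mix.

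Esr1, which encodes oestrogen receptor alpha, had levels of 5.47, 5.61, 5.55, 5.08 and 5.57 alone, 4.92, 5.20, 4.92, 4.67 and 4.63 with platelets and 5.16, 5.19 and 5.47 in the lysis mix. The groups overlapped, through alone replicate 4 and platelets replicate 2. Esr1 differed by -0.59 ± 0.13 (SE; 95% interval -0.87 to -0.30) from cells alone (limma adjusted p = 0.0210), and by -0.41 ± 0.15 (SE; limma adjusted p = 0.212) from the lysis mix. The call against cells alone was lost without alone replicate 2, 3 or 5 or platelets replicate 4 or 5, with adjusted p from 0.0501 to 0.0593. It was also lost with equal array medians (adjusted p = 0.0533) and when the values were quantile-normalised again (adjusted p = 0.276). With the number sets 1 to 3 and 4 and above as a block, the difference from the lysis mix was -0.58 and passed (adjusted p = 0.0452).

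**Figure D2:**
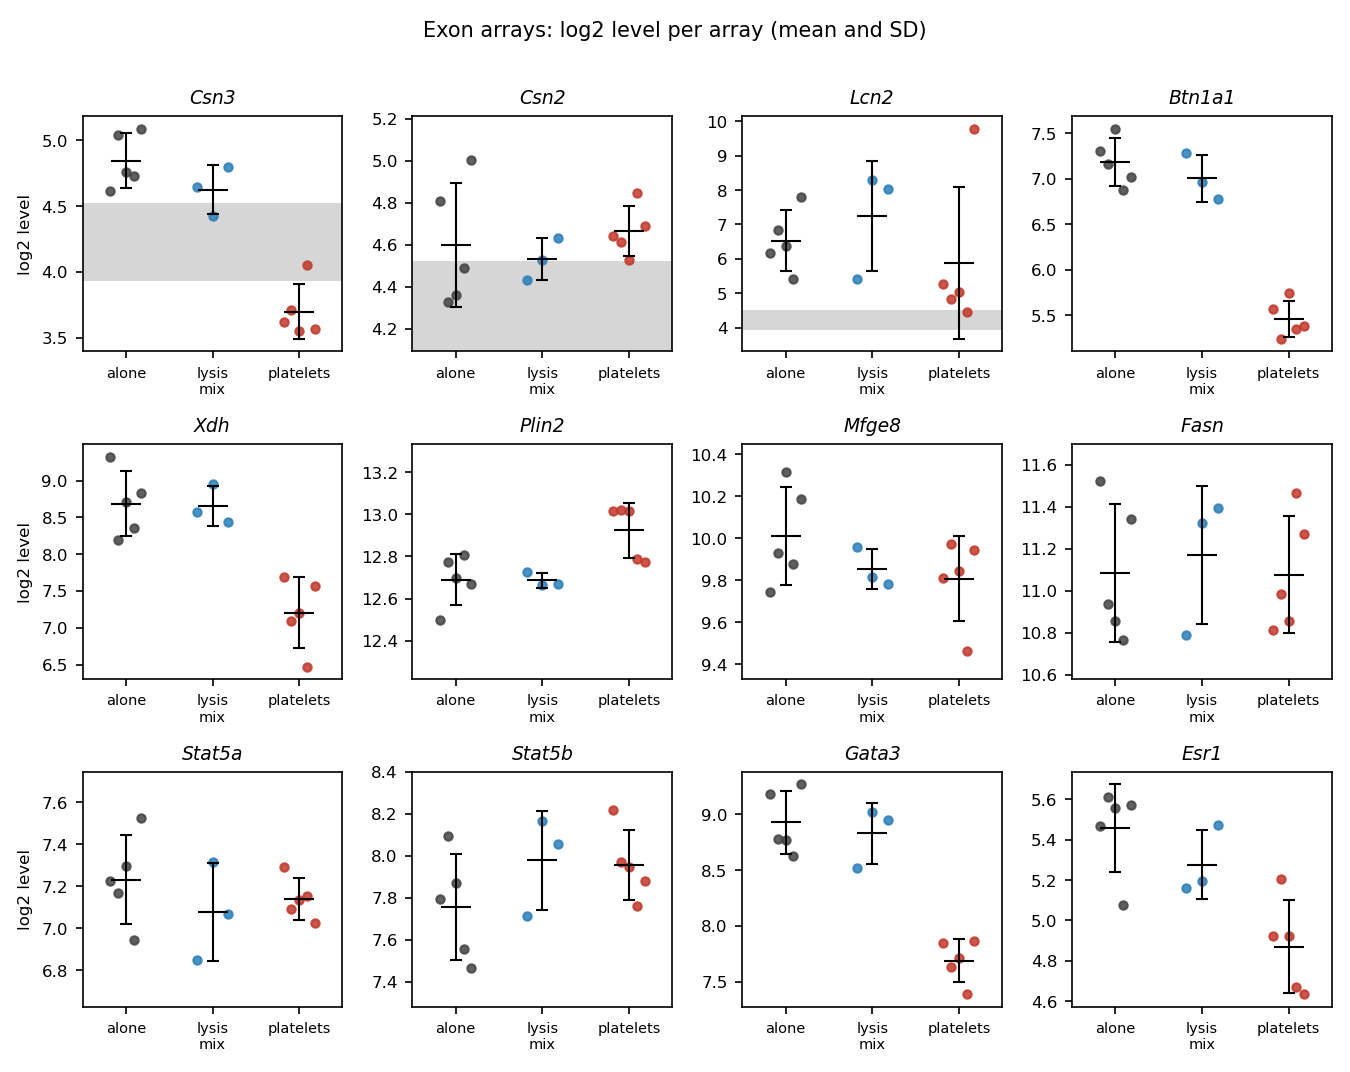
Log2 level in each exon array for the 12 genes above background in every array of cells alone, by group; points are arrays, bars give the mean and SD, the grey band spans the background levels of the 13 arrays, and each panel has its own axis. For Csn3, Btn1a1, Xdh and Gata3, the 5 arrays with cultured platelets lie below all arrays of cells alone and of the lysis mix.

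Promoter sequence was found in the RefSeq table (build GRCm38.p6) for 25 of the 32 genes and, among the 5 that fell, for Gata3 and Esr1. Windows were to be shown for the genes that fell, and only these 2 had an entry. They were searched on both strands for TTCNNNGAA, the core of the STAT5 binding motif, and for CAGGTG, an E-box form bound by repressors of epithelial genes. Capitals mark a match.
Gata3, chr2:9878551-9878850, minus strand: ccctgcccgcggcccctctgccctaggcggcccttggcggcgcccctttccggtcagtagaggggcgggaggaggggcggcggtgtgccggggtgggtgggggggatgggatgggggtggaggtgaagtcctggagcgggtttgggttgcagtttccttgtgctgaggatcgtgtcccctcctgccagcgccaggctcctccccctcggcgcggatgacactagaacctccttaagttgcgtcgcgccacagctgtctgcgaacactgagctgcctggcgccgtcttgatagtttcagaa
Esr1, first window, chr10:4611739-4612038, plus strand: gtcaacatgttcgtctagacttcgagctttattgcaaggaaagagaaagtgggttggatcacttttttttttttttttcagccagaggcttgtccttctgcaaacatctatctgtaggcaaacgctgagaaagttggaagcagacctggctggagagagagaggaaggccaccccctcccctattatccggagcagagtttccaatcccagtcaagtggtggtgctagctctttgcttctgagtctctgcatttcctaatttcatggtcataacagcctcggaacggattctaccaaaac
Esr1, second window, chr10:4709908-4710207, plus strand: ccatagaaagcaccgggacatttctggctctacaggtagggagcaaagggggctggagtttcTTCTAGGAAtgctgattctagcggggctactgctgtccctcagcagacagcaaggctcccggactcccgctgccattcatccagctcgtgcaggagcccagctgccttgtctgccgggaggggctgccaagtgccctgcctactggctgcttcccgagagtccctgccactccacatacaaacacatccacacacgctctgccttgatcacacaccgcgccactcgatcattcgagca
The second Esr1 window held 1 match to TTCNNNGAA, and the Gata3 window and the first Esr1 window held none. CAGGTG was found in none of the 3. Over all 32851 promoter windows of the table, 8.3% held TTCNNNGAA and 20.2% held CAGGTG. A match describes letters in a window and is no evidence of binding.

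Stat5a and Stat5b, which carry the prolactin signal, did not pass the test. Stat5a had means of 7.23 ± 0.21 alone, 7.14 ± 0.10 with platelets (SD, n = 5) and 7.08 ± 0.23 in the lysis mix (SD, n = 3). Its difference between platelets and alone had a 95% interval of -0.33 to 0.15. Stat5b had means of 7.76 ± 0.25, 7.96 ± 0.17 and 7.98 ± 0.24, with an interval of -0.09 to 0.49.

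Lcn2, which encodes the iron-siderophore binding protein lipocalin 2, varied most among the 12 genes. Its levels were 6.16, 6.85, 6.38, 5.41 and 7.81 alone, 5.28, 4.82, 5.04, 4.45 and 9.78 with platelets and 5.41, 8.30 and 8.04 in the lysis mix. Of the platelet cultures, 4 were below the lowest array of cells alone and replicate 5 was above every other array. The difference was -0.64 ± 0.95 (SE; 95% interval -2.70 to 1.42; limma adjusted p = 0.925), and without platelets replicate 5 the adjusted p was 0.214. Lcn2 is also a granule protein of neutrophils. The 14 neutrophil granule genes averaged 3.35 to 3.43 in arrays with cultured platelets and 3.29 to 3.44 in cells alone, and 1 of the 14 was above background in each. The part of neutrophils in the Lcn2 values was not tested.

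The lysis mix holds platelet RNA beside that of the tumour cells, without their culture together. It differed from cells alone in none of the 30 genes by limma, against 0.0474% of all genes, and 1 of the 30 and 748 of all 18997 genes had an unadjusted p under 0.05. Among settings tried, the count stayed at 0. The differences ran from -0.22 in Csn3 to 0.73 in Lcn2, with medians of -0.06 over the 30 genes and -0.04 over all genes. Platelet cultures were lower than the lysis mix in 4 of 30 genes and higher in none, against 3.68% of all genes called in either direction. The 4 genes, Btn1a1, Csn3, Gata3 and Xdh, passed against both controls, as 3% of all genes did.

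Replicates with numbers 1 to 3 and those with numbers 4 and above were also examined apart, since lysis mix samples exist only for the latter. Within numbers 1 to 3, the differences of platelets from alone were -1.82 in Btn1a1, -1.18 in Csn3, -1.18 in Gata3, -1.41 in Xdh and -0.53 in Esr1, and all passed except Xdh (limma adjusted p = 0.0517). Within numbers 4 and 5, with 2 arrays per group, they were -1.58, -1.10, -1.32, -1.58 and -0.67, and none passed (adjusted p from 0.0669 to 0.358). Lcn2 passed within numbers 1 to 3 (difference -1.41 ± 0.20, SE; limma adjusted p = 0.0118) and differed by 0.51 within numbers 4 and 5. An interaction term for the number set passed in none of the 30 genes and in 0 of all genes, where 0 of the 30 and 1356 of all genes had an unadjusted p under 0.05. For platelets against the lysis mix within numbers 4 and above, 1 of the 30 genes passed, Btn1a1, against 70 of all genes. Csn3, Gata3 and Xdh lost the call there, at -0.82, -1.20 and -1.63 (limma adjusted p = 0.221, 0.157 and 0.147).

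**Figure D3:**
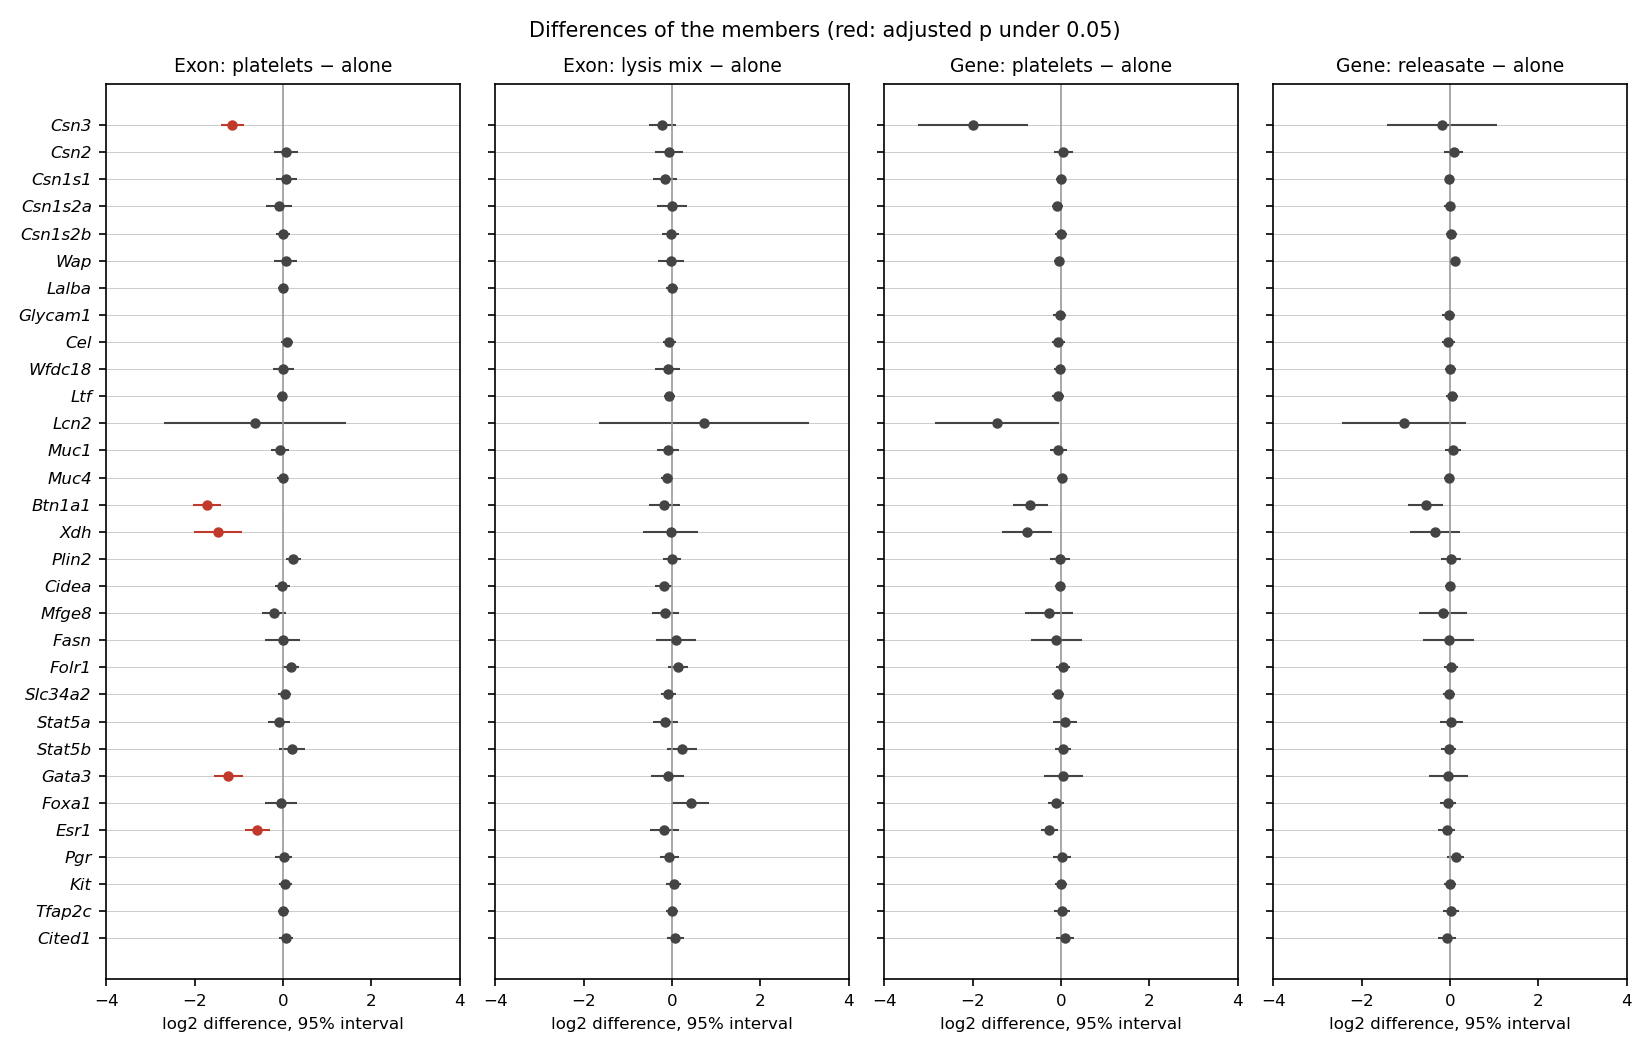
Log2 differences with 95% intervals for each measured gene, for platelets and lysis mix against cells alone on exon arrays and platelets and releasate against cells alone on gene arrays; red points had a limma adjusted p under 0.05 and a gene with no point was not measured there. The 5 red points, Btn1a1, Xdh, Gata3, Csn3 and Esr1, are all on exon arrays with cultured platelets, between -1.73 and -0.59.

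Gene arrays asked whether whole platelets, the pellet and the releasate had the same relation to these genes. With 3 arrays per group, none of the 30 genes passed in any comparison with cells alone. Over all genes 0.667% passed for platelets, 0.416% for the pellet and 0% for releasate. At an unadjusted p under 0.05, limma gave 5, 5 and 2 of the 30 genes, against 1916, 1921 and 563 of all genes. With the replicate number as a block, platelets against alone gave 3 of 30 genes (2.28% of all genes), and releasate against alone gave 0 of 30 (0% of all genes). The block is given for these comparisons because same-numbered arrays deviated together in them. It was fitted over all 12 gene arrays, those with the pellet included. For the pellet against alone, the correlations of same-numbered deviations ran from -0.037 to 0.339. By their titles, the replicate 8 arrays with platelets, pellet and releasate form an earlier run of numbers without cells alone. The replicate 8 pairs with cells alone thus cross the 2 runs. Within the later run, platelets against alone gave 1 of all genes. On gene arrays the platelet description and the source name disagree for alone replicate 8 and platelets replicate 9. The source name was used. The mean of the platelet genes was 5.71 in alone replicate 8, against 5.76 and 5.77 in the other arrays of cells alone. In platelets replicate 9 that mean was 6.08, against 6.07 and 6.08 in the other arrays with platelets.

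Csn3 had log2 levels of 8.99, 8.23 and 8.52 in cells alone, 7.75, 6.20 and 5.76 with platelets, 8.49, 6.47 and 6.61 with the pellet and 8.75, 8.52 and 7.91 with releasate, in replicates 7, 8 and 9. Every platelet array was below every array of cells alone, and replicate 7 was the highest of both the platelet and the pellet group. The difference was -2.0 ± 0.57 (SE, n = 3 and 3; 95% interval -3.25 to -0.76; limma adjusted p = 0.180), and with the replicate block -2.0 ± 0.31 (SE; adjusted p = 0.0112). The pellet differed from alone by -1.39 ± 0.57 (SE; limma adjusted p = 0.446) and releasate by -0.18 ± 0.57 (SE; limma adjusted p = 1.00). Platelets and releasate did not overlap for Csn3, with a difference of -1.82 ± 0.57 (SE; limma adjusted p = 0.467). The mean of the platelet genes in platelets replicate 7 was 6.08, and 6.07 and 6.08 in the other two.

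Btn1a1 stood at 6.35, 5.77 and 6.66 alone, 5.70, 5.45 and 5.55 with platelets, 5.87, 5.52 and 5.63 with the pellet and 5.70, 5.74 and 5.68 with releasate. Platelet and releasate values lay below all values alone, and the pellet overlapped them. Platelets replicate 8, at 5.45, was under the background level of its array, 5.48. Platelets replicate 9 (5.55) and pellet replicate 8 (5.52) lay just above theirs, 5.46 and 5.48. With values so near background, the differences may understate the change in Btn1a1 and do not rank the treatments. The difference of platelets from alone was -0.69 ± 0.18 (SE; 95% interval -1.08 to -0.30; limma adjusted p = 0.131), with the replicate block ± 0.15 (adjusted p = 0.0497). Leaving out alone replicate 8, 1 of the samples whose labels disagree, gave limma adjusted p = 0.0203 for platelets and 0.0411 for the pellet. In each comparison this was the 1 passing fit of 6 that left out an array. The highest adjusted p was 0.380 for platelets, without alone replicate 7, and 0.613 for the pellet, without alone replicate 9. The pellet differed by -0.59 ± 0.18 (SE; limma adjusted p = 0.250) and releasate by -0.55 ± 0.18 (SE; limma adjusted p = 1.00, also with the block).

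Xdh had levels of 8.34, 8.42 and 7.83 alone, 7.64, 7.54 and 7.10 with platelets, 7.64, 7.65 and 7.10 with the pellet and 7.90, 8.33 and 7.35 with releasate. Platelet and pellet values lay below all values alone, and releasate overlapped them. Platelets differed from alone by -0.77 ± 0.25 (SE; 95% interval -1.33 to -0.22; limma adjusted p = 0.277), with the replicate block ± 0.10 (adjusted p = 0.00436). The pellet differed by -0.73 ± 0.25 (SE; limma adjusted p = 0.334) and releasate by -0.34 ± 0.25 (SE; limma adjusted p = 1.00).

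Gata3, lower with platelets on exon arrays, stood at 7.52, 7.90 and 7.51 alone, 7.53, 7.59 and 7.97 with platelets, 6.99, 7.78 and 7.58 with the pellet and 7.65, 7.77 and 7.40 with releasate. The 4 groups overlapped. The difference of platelets from alone was 0.05 ± 0.20 (SE; 95% interval -0.38 to 0.49; limma adjusted p = 0.981), an interval that lies above the exon array interval of -1.56 to -0.92. The tables were normalised apart, and the difference between array types was not tested.

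Esr1 levels were 6.90, 6.88 and 6.87 alone, 6.83, 6.49 and 6.54 with platelets, 6.70, 6.71 and 6.54 with the pellet and 6.83, 6.85 and 6.73 with releasate. Each of the other groups lay below cells alone without overlap. The differences were -0.26 ± 0.09 for platelets, -0.23 ± 0.09 for the pellet and -0.08 ± 0.09 for releasate (SE; limma adjusted p = 0.270, 0.378 and 1.00).

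Lcn2 stood at 8.74, 8.19 and 8.26 alone, 8.71, 6.16 and 5.97 with platelets, 7.41, 6.34 and 6.12 with the pellet and 7.43, 8.04 and 6.6 with releasate. Platelets replicate 7 lay within the range of cells alone, and all arrays with pellet or releasate lay below it. The differences were -1.45 ± 0.64 for platelets, -1.78 ± 0.64 for the pellet and -1.04 ± 0.64 for releasate (SE; limma adjusted p = 0.494, 0.363 and 1.00). Without platelets replicate 7 the platelet difference passed (limma adjusted p = 0.0460). It was the 1 passing fit of 6 that left out an array, with adjusted p up to 0.804 without alone replicate 7. The 15 neutrophil granule genes averaged 4.80 to 4.95 over all groups of gene arrays, under the background level of 5.45 to 5.53.

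**Figure D4:**
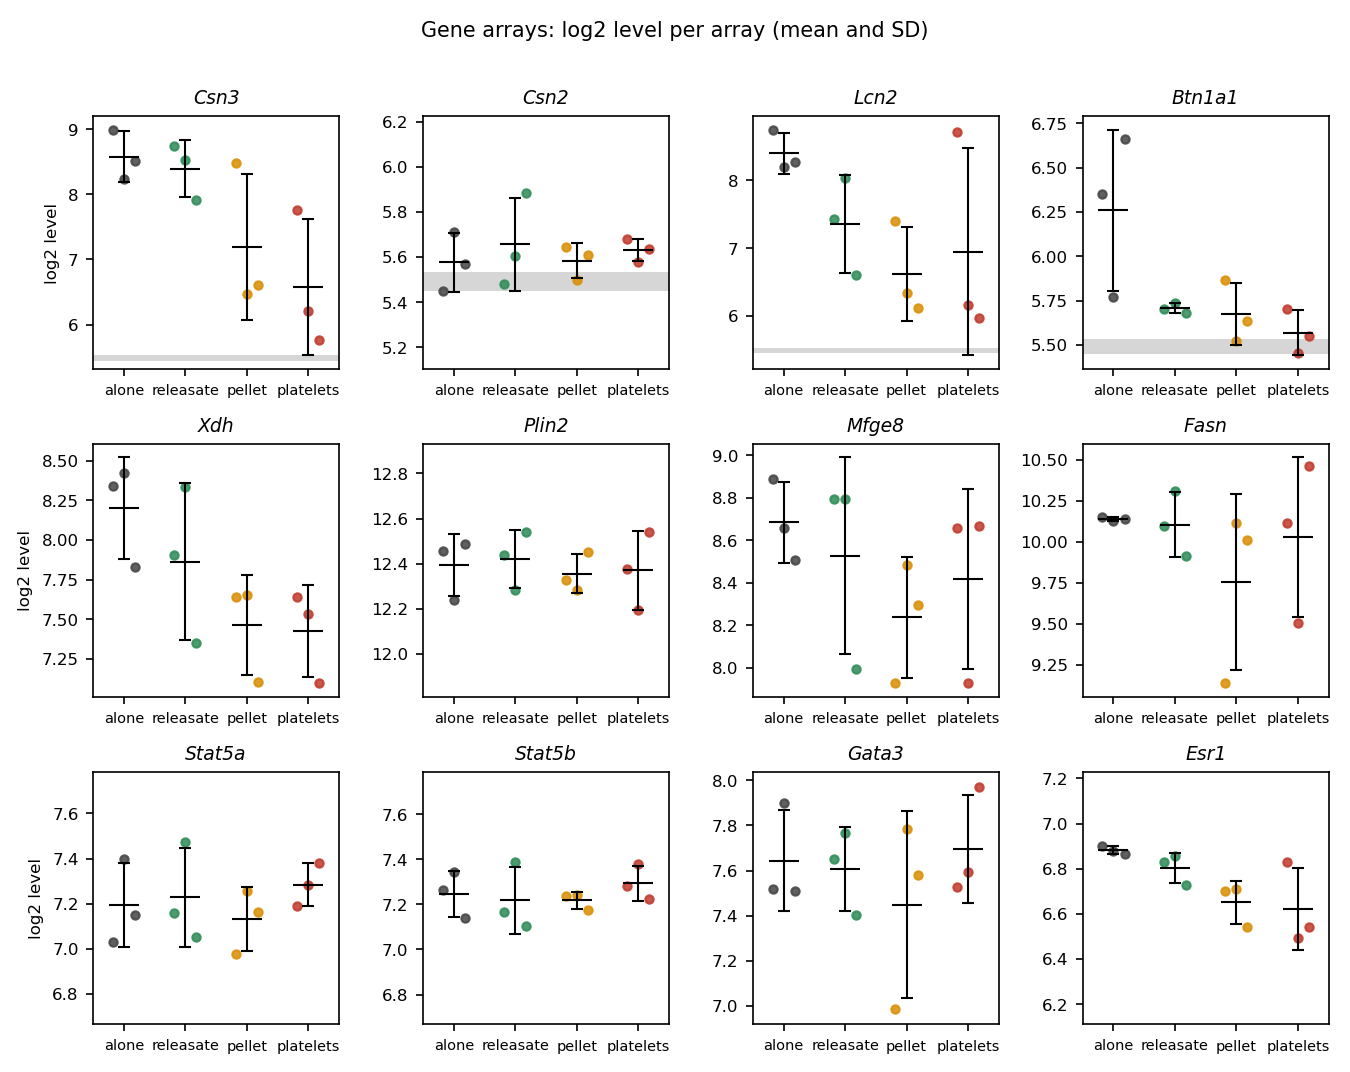
Log2 level in each gene array for the same 12 genes by group, with the mean and SD; points are arrays in the order of replicates 7, 8 and 9, the grey band spans the background levels of the 12 arrays, and each panel has its own axis. Csn3 and Xdh lie lower with platelets than alone in every array, and Gata3 overlaps in all 4 groups.

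The other genes that were on overlapped between platelets and alone on gene arrays. Plin2 had means of 12.39 ± 0.14 alone, 12.37 ± 0.17 with platelets, 12.35 ± 0.09 with the pellet and 12.42 ± 0.13 with releasate (SD, n = 3). Fasn and Mfge8 were lower with the pellet than alone without overlap, by -0.38 ± 0.26 and -0.45 ± 0.25 (SE; limma adjusted p = 0.726 and 0.639). Groups did not overlap for 6 of the 30 genes with platelets (16.1% of all genes), 6 with the pellet (15.9%) and 4 with releasate (8.71%). The 16 genes under background in all gene arrays of cells alone differed by -0.11 to 0.04 with platelets, -0.12 to 0.09 with the pellet and -0.05 to 0.13 with releasate.

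Directly compared, platelets against releasate, pellet against releasate and platelets against pellet gave 0 of 30 genes each by limma. All genes passed at 0.0451%, 0.00502% and 0%, and at an unadjusted p under 0.05 the 30 genes gave 2, 1 and 0, against 1320, 1139 and 503 of all 19938 genes. Csn3 was the most different gene of the 30 in all 3, at -1.82, -1.20 and -0.62. The comparisons share groups, and are given side by side only.

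Further genes of the same pathways moved in both directions on exon arrays. Of 27 measured partners in milk fat synthesis and export, B4galt1 rose and Dgat1, Elovl6 and Aqp5 fell with platelets against alone. B4galt1, the galactosyltransferase that joins alpha-lactalbumin in lactose synthase, rose by 1.01 ± 0.15 (SE; limma adjusted p = 0.00136). Dgat1, which makes triglyceride, differed by -0.84 ± 0.17 (SE; adjusted p = 0.0130), Elovl6, a fatty acid elongase, by -0.75 ± 0.15 (adjusted p = 0.0115) and Aqp5, a water channel, by -0.73 ± 0.15 (adjusted p = 0.0155, and 0.145 when the values were quantile-normalised again). The other 23 did not pass, and the list median was -0.03 against 0.00 over all genes.

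Of 23 measured regulators of prolactin signalling and alveolar differentiation, 2 rose and 2 fell. Id2, a helix-loop-helix inhibitor needed for alveolar development, differed by -2.95 ± 0.39 (SE; limma adjusted p = 0.000668), from 8.87 ± 0.29 to 5.92 ± 1.02 (SD, n = 5). Nrg1, an ErbB receptor ligand, differed by -1.07 ± 0.22 (SE; adjusted p = 0.0140). Ehf, an epithelial ETS factor, rose by 1.57 ± 0.29 (SE; adjusted p = 0.00717). Ehf was above background in 3 of 5 arrays of cells alone, at a mean of 4.16, and in 5 of 5 with platelets, so that its difference may understate the change. On gene arrays Ehf was under background in every array, with means of 5.24 with platelets and 4.93 alone. Cish, a cytokine signalling inhibitor that STAT5 induces, rose by 0.63 ± 0.16 (SE; adjusted p = 0.0451), a call that held in 1 of 10 fits that left out an array, the one without platelets replicate 1, with adjusted p up to 0.110 without alone replicate 3. The list median was -0.04.

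Of 25 measured hormone-sensing and luminal progenitor genes, which include Ehf, Cldn4 rose and Elf3 and Fgf7 fell. Cldn4, a tight junction protein, rose by 0.45 ± 0.09 (SE; limma adjusted p = 0.0115). Elf3, an ETS factor of epithelia, differed by -1.40 ± 0.26 (SE; adjusted p = 0.00681). Fgf7 differed by -0.33 ± 0.07 (SE; adjusted p = 0.0219), at levels under background, and held in 6 of 10 fits that left out an array, not without alone replicate 2 or 3 or platelets replicate 1 or 2 (adjusted p up to 0.0647). The list median was -0.01.

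Against the lysis mix, the first list gave 1 higher and 3 lower, the second 1 and 1, and the third 2 and 1. Dgat1 (-1.05 ± 0.20, SE; limma adjusted p = 0.00942) and Id2 (-2.53 ± 0.45, SE; adjusted p = 0.00680) passed in each of 8 fits that left out an array. B4galt1, Cldn4, Ehf, Elf3, Aqp5 and Elovl6 passed with all arrays, and each lost the call in at least 1 such fit, with a highest adjusted p of 0.0641, 0.0750, 0.0953, 0.0778, 0.152 and 0.0915. These came without lysis mix replicate 4 for B4galt1 and Aqp5, replicate 5 for Elf3 and replicate 6 for Cldn4, Ehf and Elovl6. The lysis mix differed from cells alone in none of the 3 lists. On gene arrays B4galt1 alone passed, higher with platelets by 0.57 ± 0.09 (SE; limma adjusted p = 0.0172), and its call was lost without any 1 of the arrays of cells alone (adjusted p up to 0.0701). The second list there held Id2 at -1.71 ± 0.44 (SE; adjusted p = 0.134).

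Basal markers were measured as the other epithelial type of the gland. Their mean level over 14 genes was 4.85 to 4.96 alone, 5.06 to 5.22 with platelets and 4.88 to 5.09 in the lysis mix on exon arrays. The median difference of platelets from alone was 0.03 over the 14, against 0.00 over all genes. Differences ran from -0.29 in Itga6 to 1.53 in Myl9, and those of Myl9 and Krt14 were the largest. Myl9 did not pass (limma adjusted p = 0.0904) and had means of 3.89 alone and 5.16 in the lysis mix. Krt14 was at 10.59 ± 0.45 alone, 11.78 ± 0.17 with platelets (SD, n = 5) and 10.61 ± 0.40 in the lysis mix (SD, n = 3), and it was the 1 of the 14 that passed. Krt5, Trp63 and Acta2 were under background in cells alone on both array types. Itga6 and Itgb4 of the same list were above it in all 5 exon arrays of cells alone, with means of 9.97 and 10.41. On gene arrays 1 of the 14 passed as higher with platelets than alone. Krt8 and Krt18, luminal keratins, stood at 12.96 ± 0.09 and 13.15 ± 0.11 alone (SD, n = 5). Krt19, another luminal keratin, was under background in every array of cells alone, with means of 3.08 on exon and 4.56 on gene arrays. The mean over 13 leukocyte genes was 3.38 to 3.5 alone, 3.71 to 3.97 with platelets and 3.68 to 3.85 in the lysis mix. Ptprc was under background in every exon array. Laptm5 and Csf1r, 2 of the 13, passed, both higher with platelets than alone (limma adjusted p = 0.00913 and 0.0197). Laptm5 stood at 3.71 alone, 6.03 with platelets and 6.98 in the lysis mix, and Csf1r at 3.51, 3.88 and 3.52. Mast cell and erythroid lists averaged under background in all groups, as did the adipocyte list. The part of these other cells in the falls of Btn1a1, Xdh, Csn3 and Gata3 was not tested.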

How the data were processed

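Deposited log2 values were used as the authors made them, with Partek 6.4 and RMA for exon arrays and Partek 6.5 and RMA for gene arrays, per the submitters' processing notes. The exon table held 44343 probe sets, 22781 of them with 1 gene symbol, and gene arrays had 35556 and 21789. Each gene was represented by its brightest single-symbol probe set on average. Groups came from source names.

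Each table was fitted alone over all its groups with limma 3.58.1 in R 4.3.3 (lmFit, eBayes), and p-values were adjusted by Benjamini-Hochberg over all genes of the table, with 0.05 as the threshold. The fit was tested on simulated data. RMA compresses differences of dim probe sets, and the number of arrays limits precision.

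The genes, gene lists and tests were chosen with earlier results of these data known. Named are all genes of the list that passed or were on in cells alone on both array types, caseins, whey proteins and hormone receptors regardless, and up to 4 partner genes per list and comparison that passed.

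Replicate numbers are shared between groups. Deviations from group means correlated in every same-numbered pair for platelets against alone (0.287 to 0.442) and releasate against alone (0.292 to 0.381) on gene arrays, so these count as paired. The pairing is read from the correlations, not from a label, and both fits were known when it was read. On exon arrays the correlations for platelets against alone ran from -0.255 to 0.583. Alternatives were a replicate block, quantile normalisation, equal array medians, array weights, an intensity trend, all probe sets averaged, genes above background only, number sets, and each array left out. Promoters came from RefSeq.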

Additional observations from a re-analysis of the deposited data

Results flagged for a closer look

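Outliers within a group were looked for in 60 sets of 5 exon arrays, and 2 were found, where chance flags about 1 in 20 groups. Lcn2 stood at 9.78 in platelets replicate 5, against 4.45 to 5.28 in the other 4 arrays with cultured platelets, and the gap was 0.845 of the group's range, above the limit of 0.71. Esr1 stood at 5.08 in alone replicate 4, against 5.47 to 5.61 in the other 4 arrays of cells alone, with a gap of 0.735 of the range.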

How the results depend on the processing

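No gene called with all arrays changed its sign. Lcn2, not called with all arrays on exon arrays, was called lower within numbers 1 to 3 (-1.41) and stood 0.51 higher within numbers 4 and 5. Csn3, Btn1a1, Gata3 and Xdh were called lower with platelets than alone on exon arrays under each alternative except the arrays with numbers 4 and 5, where 0 of the 30 genes passed (27 of all genes), and for Xdh also numbers 1 to 3. Array weights added Plin2, higher with platelets (0.27, adjusted p = 0.00797). Against the lysis mix, array weights gave 8 of the 30 genes and the arrays with numbers 4 and above, an alternative added after the data were seen, gave 1. Leaving out 1 array at a time gave 4 to 5 genes against alone, 3 to 4 against the lysis mix and 0 for the lysis mix against alone. On gene arrays it gave 0 to 1 for platelets and for the pellet against alone and 0 in the other comparisons. There, array weights gave 1 gene for the pellet against alone, and leaving out both samples whose labels disagree gave 1 each for platelets and the pellet. With the replicate block, platelets against alone gave 3 genes, the pellet against alone 1 (Xdh, adjusted p = 0.00962) and platelets against releasate 1 (Csn3, adjusted p = 0.0425). On exon arrays the block kept 5 genes against alone and gave 3 of 30 against the lysis mix, where Csn3 had an adjusted p of 0.0794. Other comparisons kept their counts under it.

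Counts over all genes moved more than those of the 30. For platelets against alone on exon arrays, 864 genes became 1326 with the replicate block and 1750 with array weights. Quantile normalisation turned 394 higher and 470 lower into 452 and 361, and against the lysis mix 292 and 407 into 357 and 296. Against the lysis mix 699 became 4402 with array weights and 70 with numbers 4 and above, and without lysis mix replicate 6 it was 397. The lysis mix against alone gave 231 with weights, 1 with the block, 3 with numbers 4 and above, and 1 to 7 with an array left out. On gene arrays platelets against alone gave 464 with weights, 454 with the block, 30 without both such samples, 1 in the later run of title numbers (added after the data were seen) and 21 to 119 with an array left out. The pellet gave 501, 359, 46, 4 and 8 to 133, and 51 with the run as a block. Platelets against releasate gave 42 with weights, 98 with the block, 19 with an intensity trend, 5 with equal medians and 0 without both such samples. Pellet against releasate gave 37, 44, 13, 0 and 0. Causes were not tested. With the 90th and the 99th percentile of receptor probe sets as background, 12 and 8 genes were on in cells alone on both array types, against 11.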
